A study of Mus musculus with 10 samples.

Results

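The glutathione transferase gene Gsta3 was followed together with 9 other genes of the same enzyme group, Gsta4, Gstm1, Gstm2, Gstm5, Gstp1, Gstt1, Gstk1, Mgst1 and Mgst3. They are 10 of 55357 genes counted in 6 heart and 4 macrophage RNA-seq libraries of the mouse. Gsta3 was picked for its higher level in IL-10 hearts, so its heart values are a description and carry no test. The other members were listed as relatives by name. Their own values were not part of the choice, although earlier results of these data were known when the list was drawn up.

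All hearts are labelled Cd163-/-. CD163 is the macrophage scavenger receptor for haptoglobin-haemoglobin complexes, and every heart held reads of its gene, as given with the library values. The groups were IL-10 hearts (n = 3), from mice given the anti-inflammatory cytokine interleukin-10 under the skin on days listed between day 0 and day 27, in doses of 50 µg/kg/day, and saline hearts (n = 3). The design text describes male mice that were 8 weeks old at transverse aortic constriction, surgery that narrows the aorta and loads the left ventricle. Surgery is not stated for the individual hearts, and wild-type or sham-operated hearts were not analysed here. The macrophages were Cd163-/- (n = 2) or wild type (n = 2). They were drawn from the peritoneum after thioglycolate, an irritant, kept by adherence and treated with 100 nM of the glucocorticoid dexamethasone for 48 h. The strain background of the mice is C57BL/6.

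Glutathione transferases join the tripeptide glutathione to reactive electrophiles, among them aldehydes and epoxides that arise when membrane lipids are oxidised. The conjugates are then exported from the cell and broken down. Soluble enzymes fall into classes named by Greek letters, here alpha (Gsta), mu (Gstm), pi (Gstp) and theta (Gstt). Gstk1 is the kappa enzyme of mitochondria and peroxisomes. Mgst1 and Mgst3 belong to an unrelated family of membrane proteins that also reduce lipid hydroperoxides. Many genes of the group are known targets of NRF2, a transcription factor that binds the antioxidant response element.

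The promoters of Gsta3, Gstm5 and Mgst1 are shown because they are the 3 members with a window that holds the core letters of that element. Each window runs from 250 bases before to 50 bases after the RefSeq start on GRCm38.p6, in the direction of the gene. Capitals mark the core TGACNNNGC on either strand, and in Gstm5 also the AP-1 letters TGANTCA.
Gsta3 promoter, chr1:21240335-21240634, plus strand: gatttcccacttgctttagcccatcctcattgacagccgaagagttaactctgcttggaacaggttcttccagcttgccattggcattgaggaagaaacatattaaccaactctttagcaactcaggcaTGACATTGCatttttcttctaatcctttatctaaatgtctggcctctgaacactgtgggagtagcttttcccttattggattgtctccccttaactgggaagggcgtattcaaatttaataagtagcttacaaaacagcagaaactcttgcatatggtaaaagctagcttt
Gstm5 promoter, chr3:107895604-107895903, plus strand: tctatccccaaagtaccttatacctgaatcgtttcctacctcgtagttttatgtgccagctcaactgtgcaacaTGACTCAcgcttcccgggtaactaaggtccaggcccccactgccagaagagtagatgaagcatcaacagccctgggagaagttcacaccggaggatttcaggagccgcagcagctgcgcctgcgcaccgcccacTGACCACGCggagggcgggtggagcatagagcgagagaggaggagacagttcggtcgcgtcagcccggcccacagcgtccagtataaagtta
Mgst1 promoter, chr6:138140277-138140576, plus strand: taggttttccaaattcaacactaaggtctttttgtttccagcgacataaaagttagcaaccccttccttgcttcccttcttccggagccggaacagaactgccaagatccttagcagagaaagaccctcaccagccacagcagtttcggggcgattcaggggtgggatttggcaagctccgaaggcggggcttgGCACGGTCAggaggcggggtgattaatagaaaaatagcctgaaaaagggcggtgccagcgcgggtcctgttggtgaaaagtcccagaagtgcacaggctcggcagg
The core began at position -121 from the start in Gsta3 (TGACATTGC) and at -42 in Gstm5 (TGACCACGC). In Mgst1 it lay on the opposite strand at -56 (TGACCGTGC), so the printed strand shows its reverse complement. A second Mgst1 window, chr6:138141337-138141636, held no core and is not shown. RefSeq windows were found for 9 of the 10 members, with no entry for Gsta4. The core was in the windows of 3 of those 9, against 14% of the 27025 genes with a window. The AP-1 letters were in Gstm5 (TGACTCA at -176) and Gstp1 (TGAGTCA at -74), against 8.97% of genes. The core and the AP-1 letters can overlap each other. A match describes the letters only, and no binding was measured.

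The hearts held 13.5 to 14.9 M counts (M for mega) and the macrophages 16.7 to 18.6 M. Mitochondrially encoded genes took 33.7% to 39.4% of heart counts and 2.43% to 3.12% of macrophage counts. Cd163 averaged 0.613 ± 0.233 CPM in Cd163-/- macrophages and 17.0 ± 5.57 CPM in wild-type macrophages (SD, n = 2 each). In hearts, all labelled Cd163-/-, it had 37, 43 and 34 counts in IL-10 hearts and 45, 47 and 57 counts in saline hearts, or 2.70 ± 0.404 CPM in IL-10 hearts and 3.46 ± 0.181 CPM in saline hearts (SD, n = 3 each). Adgre1, a general macrophage marker, averaged 37.3 CPM in IL-10 hearts and 35.6 CPM in saline hearts. It averaged 622 CPM in Cd163-/- macrophages and 1086 CPM in wild-type macrophages. Of the 6 listed macrophage markers, Adgre1 was called lower and Mrc1 higher in Cd163-/- macrophages, and Cd68 was called lower in IL-10 hearts. The heart values thus do not show the loss of Cd163 seen in the macrophages. The deleted part of the gene is not given in the sources used here, and with no wild-type heart the label of the hearts could not be checked. All 10 members passed the filter on low counts in both tables. The labels do not tie the libraries of a group to different mice or dishes, so p-values reflect the spread between these libraries alone, which may be technical. Levels are CPM, counts per M of the TMM-scaled library, and calls were made by edgeR's quasi-likelihood test where p, adjusted over all tested genes, was under 0.05. Coordinates of genes are those of GENCODE M21 on GRCm38, and all 10 genes are annotated there as protein-coding.

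Of the 9 members other than Gsta3, 5 rose in IL-10 hearts and 0 fell. The 5 were Gstm5, Gstt1, Gstk1, Mgst1 and Mgst3, from the mu, theta and kappa classes and both membrane enzymes. Each rose by 0.54 to 0.79 on the log2 scale, and in each the 3 IL-10 hearts lay above the 3 saline hearts. Over all 13718 genes tested in hearts, 6.86% were called higher and 6.7% lower. At an unadjusted p under 0.05, 6 of the 9 were higher and 0 lower, but the share of all tested genes at that threshold was not counted. DESeq2 and limma-voom also called 5 higher and 0 lower, against 999 and 932 of all tested genes higher. The median difference of the 9 was 0.54, against -0.01 over all tested genes. Groups that do not overlap, higher in IL-10, were found for 5 of the 9 and for 15.7% of all tested genes, and lower in IL-10 for 1 of the 9 and for 15.8%. In bulk tissue, fewer cells of a type and less RNA per cell cannot be told apart.

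**Figure D1:**
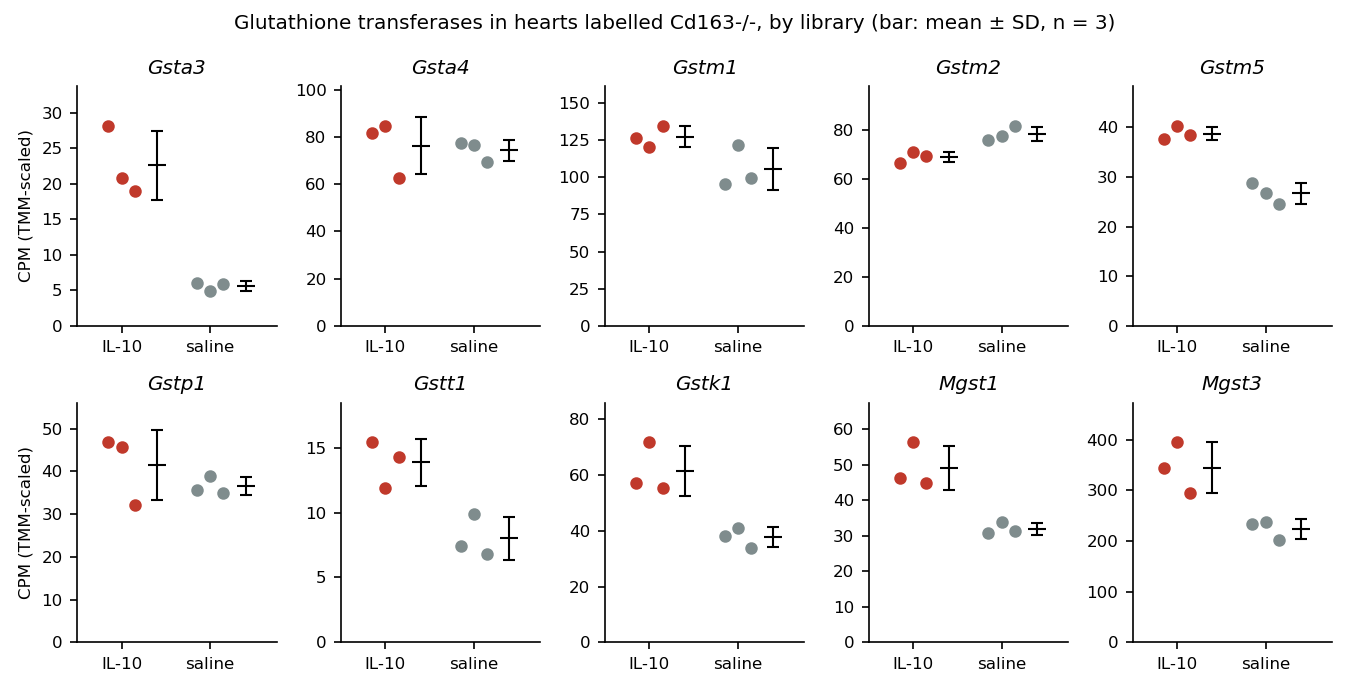
Level of each of the 10 glutathione transferases in each heart library, in TMM-scaled CPM from 0, with IL-10 hearts left of saline hearts and bars for the mean ± SD (n = 3 each). Gsta3, on whose rise the group was picked, lies between 19.0 and 28.2 CPM in IL-10 hearts and between 4.88 and 6.08 CPM in saline hearts.

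Gsta3 (ENSMUSG00000025934, chr1:21240589-21265661, plus strand) encodes an alpha-class enzyme that in the mouse is known for conjugating the epoxide of the mould toxin aflatoxin. It had 28.2, 20.8 and 19.0 CPM in IL-10 hearts, against 6.08, 4.88 and 5.89 CPM in saline hearts. Every IL-10 heart stood above every saline heart, with IL-10 heart 1 the highest. The means were 22.6 ± 4.87 CPM in IL-10 hearts and 5.62 ± 0.642 CPM in saline hearts (SD, n = 3 each), a ratio of 4.02, or 2.01 on the log2 scale (SE 0.18). These are the values Gsta3 was picked on. The other alpha-class member, Gsta4 (ENSMUSG00000032348, chr9:78182774-78209349, plus strand), is known for removing hydroxynonenal, an aldehyde of lipid peroxidation. It had 81.8, 84.7 and 62.5 CPM in IL-10 hearts, against 77.4, 76.7 and 69.3 CPM in saline hearts. The groups overlapped, and the difference of 0.04 on the log2 scale (SE 0.12) was not called (adjusted p = 0.88 by edgeR). Its sign was negative under upper-quartile and library-size scaling.

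Of the mu-class members, which lie in a cluster on chromosome 3, Gstm5 alone was called. Gstm5 (ENSMUSG00000004032, chr3:107895821-107898686, plus strand) had 37.6, 40.2 and 38.4 CPM in IL-10 hearts, against 28.8, 26.8 and 24.6 CPM in saline hearts. The 6 libraries separated cleanly, with little spread in either group. It rose by 0.54 on the log2 scale (SE 0.11, adjusted p = 0.00475 by edgeR). Gstm1 (ENSMUSG00000058135, chr3:108012255-108017973, minus strand), the major mu enzyme of mouse liver, had 127, 121 and 134 CPM in IL-10 hearts, against 95.3, 122 and 99.2 CPM in saline hearts. Saline heart 2 reached the level of the IL-10 hearts. The difference of 0.27 (log2, SE 0.12) was not called (adjusted p = 0.139 by edgeR), and without saline heart 2 it was 0.39 and called (adjusted p = 0.0449). Gstm2 (ENSMUSG00000040562, chr3:107981702-107986453, minus strand), whose human counterpart is known from muscle, had 66.6, 70.7 and 69.0 CPM in IL-10 hearts, against 75.6, 77.3 and 81.4 CPM in saline hearts. All IL-10 hearts lay below all saline hearts, but the difference of -0.18 (log2, SE 0.10) was not called (adjusted p = 0.248 by edgeR).

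Gstp1 (ENSMUSG00000060803, chr19:4035407-4037985, minus strand) is the pi-class enzyme, also known for binding the stress kinase JNK. It had 46.7, 45.6 and 32.1 CPM in IL-10 hearts, against 35.6, 38.9 and 35.0 CPM in saline hearts. The third IL-10 heart lay below every saline heart. The difference of 0.18 (log2, SE 0.14) was not called (adjusted p = 0.408 by edgeR). Gstt1 (ENSMUSG00000001663, chr10:75783813-75798584, minus strand) is the theta-class enzyme known for conjugating small halogenated compounds. It had 15.4, 11.9 and 14.3 CPM in IL-10 hearts, against 7.39, 9.91 and 6.79 CPM in saline hearts. The groups did not overlap, though IL-10 heart 2 and saline heart 2 were close. Gstt1 rose by 0.79 on the log2 scale (SE 0.18, adjusted p = 0.00711 by edgeR).

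Gstk1 (ENSMUSG00000029864, chr6:42245935-42250447, plus strand), the kappa enzyme, had 57.0, 71.5 and 55.3 CPM in IL-10 hearts, against 38.2, 40.8 and 33.9 CPM in saline hearts. All 3 IL-10 hearts were above all 3 saline hearts. It rose by 0.70 on the log2 scale (SE 0.12, adjusted p = 0.00152 by edgeR).

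Both membrane enzymes rose. Mgst1 (ENSMUSG00000008540, chr6:138140316-138156755, plus strand) sits in the endoplasmic reticulum and the outer mitochondrial membrane. It had 46.3, 56.3 and 44.9 CPM in IL-10 hearts, against 30.7, 33.8 and 31.3 CPM in saline hearts. IL-10 heart 2 was the highest, and the groups did not overlap. The difference was 0.62 on the log2 scale (SE 0.12, adjusted p = 0.00251 by edgeR). Mgst3 (ENSMUSG00000026688, chr1:167371966-167393841, minus strand), which has peroxidase activity toward lipid hydroperoxides, had 344, 394 and 294 CPM in IL-10 hearts, against 233, 238 and 202 CPM in saline hearts. Again IL-10 heart 2 was the highest and no saline heart reached an IL-10 heart. The difference was 0.62 on the log2 scale (SE 0.13, adjusted p = 0.00464 by edgeR). The 5 calls held in each alternative tried, including leaving out any 1 heart.

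The sums of the fibroblast and red blood cell markers separated the heart groups, while those of the cardiomyocyte markers overlapped. Over all tested heart genes 6.86% were called higher and 6.7% lower. The 6 fibroblast markers summed to 2450 to 2900 CPM in IL-10 hearts and 1970 to 2080 CPM in saline hearts, with 2 of 6 called higher and 1 called lower. The 6 cardiomyocyte markers summed to 25000 to 27800 CPM in IL-10 hearts and 21200 to 25300 CPM in saline hearts, with 1 of 6 called higher. That gene was Mb, which averaged 10862 CPM in IL-10 hearts and 7648 CPM in saline hearts. The 4 red blood cell markers were all lower and summed to 297 to 543 CPM in IL-10 hearts and 574 to 1170 CPM in saline hearts. The part of these shifts in the transferase differences was not tested. The 7 hepatocyte markers, of a cell type rich in glutathione transferases, summed to 0.759 to 1.18 CPM in IL-10 hearts and 0.128 to 0.293 CPM in saline hearts, with Apoa1, Apob, Serpina1a, Cyp3a11 and Fgb at 0 in every heart. Ttr, the only one of the 7 that could be tested, averaged 0.972 CPM in IL-10 hearts and 0.164 CPM in saline hearts. Alb averaged 0.0245 CPM in IL-10 hearts and 0.0731 CPM in saline hearts. Ttr was called higher (log2 2.51, SE 0.56, adjusted p = 0.00711 by edgeR). The call rests on 48 counts over all hearts, and the saline mean lay below 3 counts, or 0.192 to 0.22 CPM in those libraries.

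None of the 10 members was called between the macrophage genotypes, a contrast that played no part in the choice of Gsta3. Gsta3 averaged 7.88 ± 2.74 CPM in Cd163-/- macrophages and 14.95 ± 6.50 CPM in wild-type macrophages, and Gsta4 averaged 4.54 ± 0.690 CPM in Cd163-/- macrophages and 1.199 ± 1.25 CPM in wild-type macrophages (SD, n = 2 each). By edgeR, 0 members were called higher and 0 lower, against 13.1% and 13.3% of the 13861 genes tested in macrophages. At an unadjusted p under 0.05, 3 were higher (Gsta4, Gstm2 and Gstm5) and 1 was lower (Gsta3). The share of all tested genes at that threshold was not counted, so these counts have no background to be read against. DESeq2 called 2 members higher, Gsta4 and Gstm2, against 1732 of the 13861 tested genes, and limma-voom called 0, against 1755. In 5 members both Cd163-/- libraries lay above both wild-type libraries and in 1, Gsta3, below them. Over all tested genes these shares were 35.3% and 34.1%. The median difference over the 10 members was 0.39 on the log2 scale, against 0.01 over all tested genes.

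**Figure D2:**
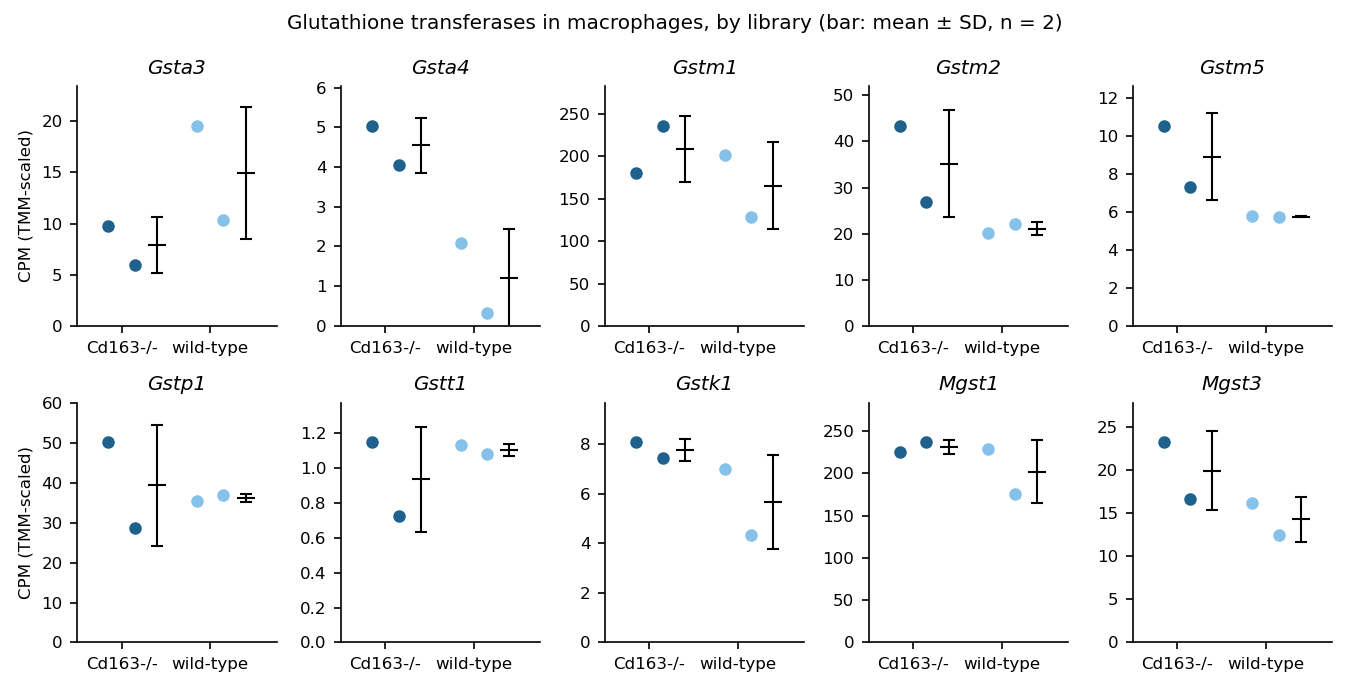
Level of each of the 10 glutathione transferases in each macrophage library, in TMM-scaled CPM from 0, with Cd163-/- left of wild type and bars for the mean ± SD (n = 2 each). Gsta3 lies lower in both Cd163-/- libraries, at 9.81 and 5.94 CPM, than in the wild-type libraries, at 19.5 and 10.4 CPM, and the error bar of Gsta4 in wild type is cut at 0.

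Gsta3 had 9.81 and 5.94 CPM in Cd163-/- macrophages, against 19.5 and 10.4 CPM in wild-type macrophages. The libraries did not overlap, but wild-type macrophage 2 was close to Cd163-/- macrophage 1. The difference was -0.92 on the log2 scale (SE 0.37, adjusted p = 0.118 by edgeR). Wherever a macrophage library is left out, its group is a single library assumed to vary like the other group, so calls kept or lost this way do not measure stability. Without wild-type macrophage 2 the Gsta3 difference was -1.31 (adjusted p = 0.0151). Gsta4 had 5.03 and 4.06 CPM in Cd163-/- macrophages, against 2.08 and 0.318 CPM in wild-type macrophages, the last from 5 counts. The difference was 1.90 on the log2 scale (SE 0.67, adjusted p = 0.0846 by edgeR). Without wild-type macrophage 1 the fitted Gsta4 difference was 3.81 (adjusted p = 0.00128), with the spread taken from the Cd163-/- libraries alone.

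Among the mu-class members, Gstm2 had 43.3 and 26.9 CPM in Cd163-/- macrophages, against 20.1 and 22.1 CPM in wild-type macrophages. Its difference was 0.74 on the log2 scale (SE 0.24, adjusted p = 0.0672 by edgeR), and without Cd163-/- macrophage 2 it was 1.03 (adjusted p = 0.0359, with the spread from the wild-type pair alone). Gstm5 had 10.5 and 7.28 CPM in Cd163-/- macrophages, against 5.76 and 5.72 CPM in wild-type macrophages, a difference of 0.63 (log2, SE 0.24, adjusted p = 0.103 by edgeR). For both genes Cd163-/- macrophage 1 was the higher of the Cd163-/- libraries. Gstm1 had 181 and 236 CPM in Cd163-/- macrophages, against 202 and 129 CPM in wild-type macrophages. These overlapped, and the difference of 0.33 (log2, SE 0.25, adjusted p = 0.352 by edgeR) was not called, and without wild-type macrophage 1 it was 0.69 (adjusted p = 0.029, 1 wild-type library).

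Mgst1 had 225 and 236 CPM in Cd163-/- macrophages, against 228 and 176 CPM in wild-type macrophages, a difference of 0.19 (log2, SE 0.16, adjusted p = 0.418 by edgeR). Mgst3 had 23.2 and 16.7 CPM in Cd163-/- macrophages, against 16.1 and 12.4 CPM in wild-type macrophages, a difference of 0.48 (log2, SE 0.22, adjusted p = 0.158). For Mgst3 the libraries did not overlap by a narrow margin, and for Mgst1 they overlapped. Gstk1 had 8.07 and 7.44 CPM in Cd163-/- macrophages, against 7.01 and 4.32 CPM in wild-type macrophages, a difference of 0.45 (log2, SE 0.27, adjusted p = 0.266 by edgeR). Gstp1 had 50.1 and 28.6 CPM in Cd163-/- macrophages, against 35.5 and 37.0 CPM in wild-type macrophages, so the Cd163-/- libraries fell on either side of the wild type. Its difference was 0.12 (log2, SE 0.26, adjusted p = 0.76 by edgeR) and was negative without Cd163-/- macrophage 1. Gstt1, at 1.15 and 0.722 CPM in Cd163-/- macrophages and 1.13 and 1.08 CPM in wild-type macrophages, had 13 to 23 counts a library. Its difference was -0.23 (log2, SE 0.40, adjusted p = 0.697 by edgeR).

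Mesothelium, fibroblast, smooth muscle and endothelial markers summed higher in the Cd163-/- macrophage libraries, while cardiomyocyte and adipocyte sums overlapped between the groups. Over all tested macrophage genes 13.1% were called higher and 13.3% lower. The 5 mesothelium markers summed to 292 to 369 CPM in Cd163-/- macrophages and 93.7 to 143 CPM in wild-type macrophages, with 4 of 5 called higher. The 6 fibroblast markers summed to 1870 to 2150 CPM in Cd163-/- macrophages and 1060 to 1490 CPM in wild-type macrophages, with 3 called higher and 1 lower. The 4 smooth muscle and pericyte markers summed to 407 to 693 CPM in Cd163-/- macrophages and 173 to 222 CPM in wild-type macrophages, with 1 called higher. The 5 endothelial markers summed to 4.98 to 6 CPM in Cd163-/- macrophages and 3.33 to 4.58 CPM in wild-type macrophages, with 0 called. The 6 lung epithelium markers summed to 0.847 to 1 CPM in Cd163-/- macrophages and 1.6 to 1.91 CPM in wild-type macrophages. The 6 macrophage markers summed to 21000 to 21700 CPM in Cd163-/- macrophages and 23300 to 27800 CPM in wild-type macrophages, with 1 called higher (Mrc1) and 1 lower (Adgre1). The part of these marker differences in the values of Gsta4, Gstm2 and Gstm5 was not tested.

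**Figure D3:**
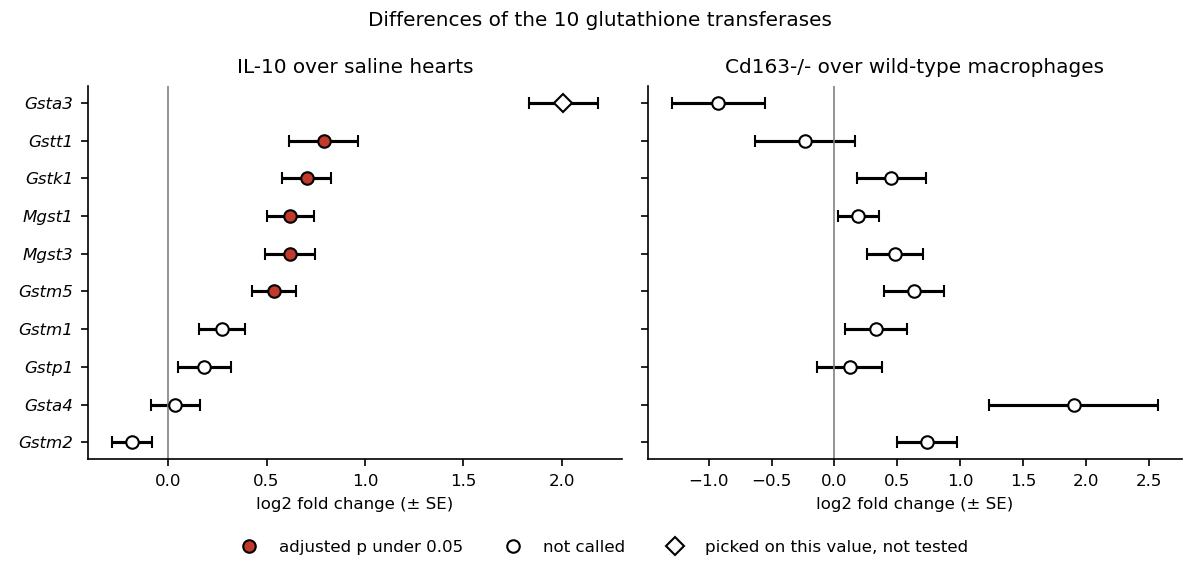
Log2 difference of each of the 10 members with its standard error, IL-10 over saline hearts at left and Cd163-/- over wild-type macrophages at right, filled where the adjusted p was under 0.05. In hearts 5 tested members are filled between 0.54 and 0.79, the diamond marks Gsta3 at 2.01, which is not tested, and in macrophages no member is filled.

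The 2 comparisons differ in tissue, treatment and genotype, and their difference was not tested. Gsta3 is placed at 2.01 in hearts and at -0.92 in macrophages, and Gsta4 at 0.04 in hearts and at 1.90 in macrophages, all on the log2 scale.

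Levels between genes were compared per kilobase of exon sequence. In hearts Mgst3 made up 49% ± 2.3 of the summed level of the 10 members in IL-10 hearts and 43.1% ± 1.4 in saline hearts (SD, n = 3 each). Gstm1 followed with 13.7% ± 2.11 in IL-10 hearts and 15.1% ± 1.41 in saline hearts, then Gsta4 with 9.42% ± 0.759 in IL-10 hearts and 12.4% ± 0.4 in saline hearts. In IL-10 hearts Gstk1 and Gstm2 could not be ranked, at 41.7 ± 6.06 and 40.9 ± 1.23 CPM per kilobase, and the range of Gstp1 overlapped those of Gstm5 above it and Mgst1 below it. Gsta3 came last in both heart groups, with 0.818% ± 0.171 in IL-10 hearts and 0.275% ± 0.0456 in saline hearts. Its place depended on the length used, because its merged exons span 4344 bases and its principal transcript 1457. Per kilobase of principal transcript Gsta3 had 15.5 ± 3.34 CPM in IL-10 hearts and 3.86 ± 0.44 CPM in saline hearts, and Gstt1 had 13.4 ± 1.72 CPM in IL-10 hearts and 7.75 ± 1.6 CPM in saline hearts. On that scale Gsta3 was 9 of 10 in IL-10 hearts, overlapping Gstt1, and 10 of 10 in saline hearts.

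The macrophages had a different leading pair. Gstm1 made up 41.7% ± 7.07 of the summed level in Cd163-/- macrophages and 40.3% ± 4.17 in wild-type macrophages, and Mgst1 33.8% ± 0.566 in Cd163-/- macrophages and 36.6% ± 0.99 in wild-type macrophages (SD, n = 2 each). By principal transcript length Mgst1 came before Gstm1, so the order of this pair is not settled. Mgst3, first in hearts, held 5.38% ± 1.34 in Cd163-/- macrophages and 4.73% ± 0.134 in wild-type macrophages. Gsta3 held 0.538% ± 0.196 in Cd163-/- macrophages and 1.22% ± 0.283 in wild-type macrophages, and Gstt1 had the lowest mean in both. In wild-type macrophages the last place is not settled, since Gsta4 ranged from 0.251 to 1.64 CPM per kilobase and Gstt1 from 0.707 to 0.739. Hearts and macrophages were normalized apart, and the mitochondrial share of the counts differs between them, so these levels stand side by side with no test.

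**Figure D4:**
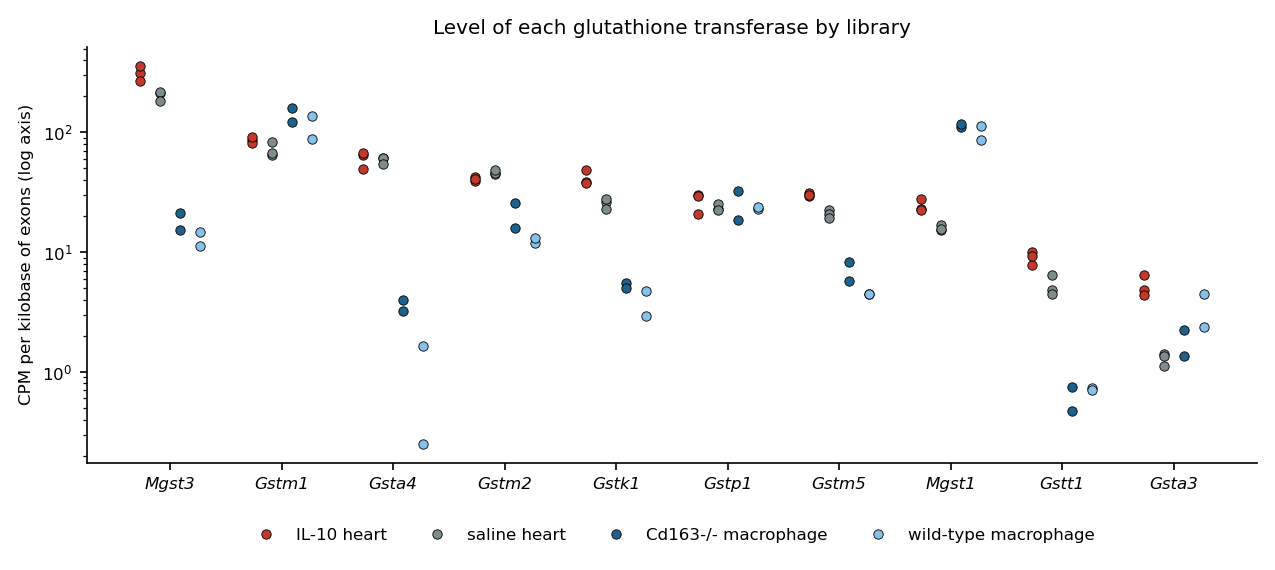
Level of each glutathione transferase in each library as CPM per kilobase of merged exons on a log axis, with members ordered by their saline heart mean and the groups side by side in 4 colours. Mgst3 lies highest in hearts, at 268 to 360 in IL-10 hearts and 184 to 217 in saline hearts, while Gstm1 and Mgst1 lie highest in macrophages.

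Reads of close gene copies can be hard to assign. The first 90 coding bases of Gsta3 are shown with those of Gsta1 and Gsta4 to show how far alpha-class genes differ, and those of Gstp1 with Gstp2 as the closest pair. Capitals mark bases that differ from the first gene of each set.
Gsta3: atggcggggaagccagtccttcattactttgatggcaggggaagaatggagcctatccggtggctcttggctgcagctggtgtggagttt
Gsta1: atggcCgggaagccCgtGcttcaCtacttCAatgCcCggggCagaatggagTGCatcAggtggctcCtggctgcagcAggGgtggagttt
Gsta4: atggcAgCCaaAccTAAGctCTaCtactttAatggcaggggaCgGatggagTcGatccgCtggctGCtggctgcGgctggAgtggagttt
Gstp1: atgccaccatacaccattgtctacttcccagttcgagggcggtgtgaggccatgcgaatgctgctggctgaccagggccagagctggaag
Gstp2: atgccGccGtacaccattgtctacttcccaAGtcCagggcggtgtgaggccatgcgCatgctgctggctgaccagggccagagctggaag
Gsta1 differs from Gsta3 at 16 of these 90 bases and Gsta4 at 21, while Gstp2 differs from Gstp1 at 6. Over the whole coding sequence the listed gene closest to Gsta3 was Gm10639, with 76.1% identity, and Gstp1 and Gstp2 shared 98.1%. No 50-base window of the principal transcripts of Gsta3, Gsta4, Gstt1, Gstk1, Mgst1 and Mgst3 occurred in a transcript of another gene. For Gstp1 62.3% of windows occurred elsewhere, for Gstm1 23.1%, for Gstm5 14.4% and for Gstm2 9.36%. With 100-base windows these shares were 52.8%, 7.73%, 9.34% and 0.622%. The shared windows of Gstm5 all matched the antisense gene 4933431E20Rik, which overlaps it. How reads that match several genes were counted is not given, so the shares do not measure how uncertain these 4 values are.

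Gsta3 had 408, 283 and 270 counts in IL-10 hearts and 83, 67 and 92 counts in saline hearts. Its near copies had fewer, but in saline hearts they were not negligible beside it. Gsta1 had 12, 20 and 15 counts in IL-10 hearts and 8, 21 and 25 counts in saline hearts, and Gm3776 had 24, 12 and 22 counts in IL-10 hearts and 13, 19 and 13 counts in saline hearts. Summed with its near copies, Gsta3 had a log2 difference of 1.65, against 2.01 for Gsta3 alone. Gstp2 had 16, 18 and 16 counts in IL-10 hearts and 12, 16 and 19 counts in saline hearts. The library kit does not mark the strand. Gsta3 overlaps the antisense gene Gm28836, which had 0 counts in all 10 libraries, and Gstm5 shares 393 bases with the antisense gene 4933431E20Rik, whose counts were 37, 41 and 39 in IL-10 hearts and 33, 43 and 31 in saline hearts.

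Other glutathione genes were read against the same shares of all tested heart genes, 6.86% higher and 6.7% lower. Of 23 other glutathione transferase and related genes, 15 were tested and 0 were called either way by edgeR, with a median difference of -0.10. The smallest p belonged to Gstm7, a mu-class gene, with 21.8, 19.4 and 15.5 CPM in IL-10 hearts and 14.1, 14.7 and 13.6 CPM in saline hearts, a difference of 0.42 (log2, SE 0.15, adjusted p = 0.07 by edgeR). The next were Gstz1 at 0.24, Gstcd at -0.49 and Gsto1 at -0.19 on the log2 scale, with adjusted p of 0.183, 0.291 and 0.374. Without IL-10 heart 3, Gstm7 was called (adjusted p = 0.0164).

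Of 47 glutathione pathway genes 39 were tested in hearts, of which 2 rose and 2 fell, with a median of 0.00088. Oplah, the oxoprolinase of glutathione breakdown, had 31.1, 29.4 and 23.8 CPM in IL-10 hearts and 11.9, 17.4 and 16.4 CPM in saline hearts. It rose by 0.89 (log2, SE 0.15, adjusted p = 0.00137 by edgeR). Gpx4, the peroxidase that reduces lipid hydroperoxides within membranes, averaged 568 ± 76.3 CPM in IL-10 hearts and 391 ± 12.7 CPM in saline hearts (SD, n = 3 each), a rise of 0.54 (log2, SE 0.13, adjusted p = 0.00928). Abcc5, an exporter of organic anions, averaged 25.8 ± 5.17 CPM in IL-10 hearts and 40.7 ± 2.07 CPM in saline hearts, so it fell by 0.65 (log2, SE 0.13, adjusted p = 0.00444). Gpx7, a peroxidase of the endoplasmic reticulum, averaged 10.2 ± 0.327 CPM in IL-10 hearts and 15.9 ± 5.41 CPM in saline hearts (log2 -0.65, SE 0.20, adjusted p = 0.0388). The Gpx7 call was lost when any IL-10 heart was left out (adjusted p of 0.0642 to 0.128) or saline heart 3, where the difference was -0.33 (adjusted p = 0.26), and with limma-voom (adjusted p = 0.0639). The Gpx4 call was lost without IL-10 heart 2 (adjusted p = 0.0547) or saline heart 1 (adjusted p = 0.0519). Without saline heart 2, 5 pathway genes were called lower. None of the 6 tested synthesis genes was called by edgeR.

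Of 18 NRF2 pathway genes outside the transferases, 17 were tested in hearts, 2 rose and 0 fell, with a median of 0.04. Fth1, the ferritin heavy chain, averaged 1558 ± 41.6 CPM in IL-10 hearts and 1117 ± 36.9 CPM in saline hearts (0.48, SE 0.12, adjusted p = 0.0148 by edgeR). Me1, the malic enzyme that makes NADPH, averaged 116 ± 4.88 CPM in IL-10 hearts and 90.6 ± 5.27 CPM in saline hearts (0.36, SE 0.10, adjusted p = 0.0321). Keap1 at 0.30 and Aox1 at 0.33 were not called (adjusted p of 0.108 and 0.148). The Fth1 call was lost without IL-10 heart 2 (adjusted p = 0.0503) or saline heart 1 (0.0779). The Me1 call was lost without IL-10 heart 1 (0.0962), IL-10 heart 2 (0.0763), saline heart 1 (0.108) or saline heart 2 (0.0939), and also under upper-quartile scaling (0.0596) and library size alone (0.111). Without IL-10 heart 3 or saline heart 2, 1 gene of the list was called lower.

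**Figure D5:**
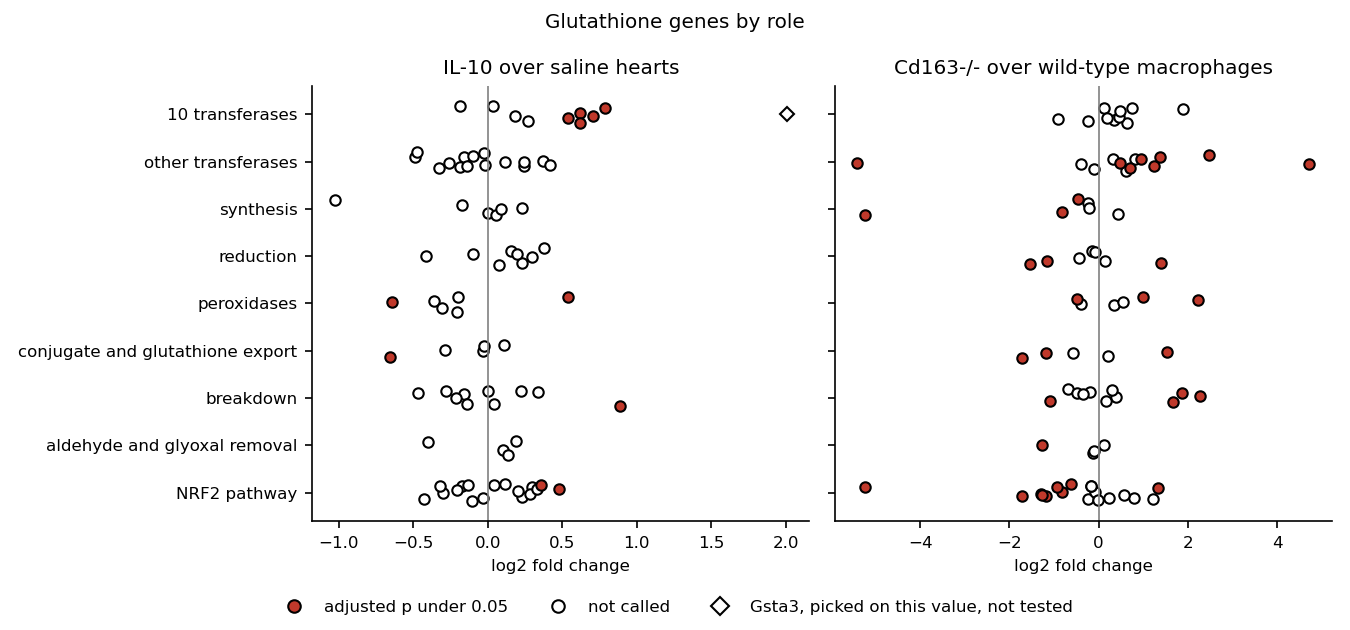
Log2 difference of each tested glutathione gene by role, IL-10 over saline hearts at left and Cd163-/- over wild-type macrophages at right, 1 point per gene, filled where the adjusted p was under 0.05. The diamond marks Gsta3 in hearts, which is not tested, and the point farthest to the right in macrophages is Gstm7, with 38 counts in Cd163-/- and 1 in wild type.

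In macrophages several genes outside the 10 were called. Of the 23 other glutathione transferase and related genes 13 were tested. In Cd163-/- macrophages 7 rose and 1 fell, against 13.1% higher and 13.3% lower over all tested genes. Their median was 0.71, against 0.01 over all tested genes. Ptges, which makes prostaglandin E, had 17.8 and 11.2 CPM in Cd163-/- macrophages, against 283 and 954 CPM in wild-type macrophages, so it fell by 5.41 (log2, SE 0.66, adjusted p = 0.00427 by edgeR). Alox5ap, the partner protein of lipoxygenase, rose by 0.94 (SE 0.18, adjusted p = 0.0172) and Ltc4s, which joins glutathione to a leukotriene, by 2.47 (SE 0.56, adjusted p = 0.0252). Gstm7 had 38 counts in Cd163-/- macrophages and 1 in wild-type macrophages, a ratio of 32.5 with a 95% counting interval of 5.49 to 1320 (adjusted p = 0.0122 by edgeR). Without Cd163-/- macrophage 1 none of these 4 was called, with adjusted p of 0.0527 (Ptges), 0.107 (Alox5ap), 0.102 (Ltc4s) and 0.101 (Gstm7). Without Cd163-/- macrophage 2, Alox5ap (0.0947), Ltc4s (0.133) and Gstm7 (0.0585) were not called. Without wild-type macrophage 2, 4 of the list were higher.

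Of the 39 pathway genes tested in macrophages, 7 rose and 10 fell, with a median of -0.15, against 13.1% higher and 13.3% lower over all tested genes. Slc7a11, the cystine importer that feeds glutathione synthesis, had 14.3 and 13.8 CPM in Cd163-/- macrophages, against 433 and 636 CPM in wild-type macrophages, so it fell by 5.24 (log2, SE 0.24, adjusted p = 0.000438 by edgeR). Abcc5 had 91.9 and 87.0 CPM in Cd163-/- macrophages, against 289 and 296 CPM in wild-type macrophages, so it fell by 1.71 (SE 0.12, adjusted p = 0.00103). Gsr, glutathione reductase, had 174 and 180 CPM in Cd163-/- macrophages, against 390.5 and 393 CPM in wild-type macrophages, so it fell by 1.15 (SE 0.13, adjusted p = 0.0032). Esd, which hydrolyses formylglutathione, fell by 1.26 (SE 0.15, adjusted p = 0.00383). The synthesis genes Gclm and Slc3a2 also fell. With the spread from the group left whole, Slc7a11 and Abcc5 passed whichever library was left out, while Gsr (adjusted p = 0.0567) and Esd (0.0624) were not called without Cd163-/- macrophage 1, nor was Esd (0.0517) without Cd163-/- macrophage 2. Pathway calls numbered 2 higher and 2 lower without Cd163-/- macrophage 1, and 4 and 4 without Cd163-/- macrophage 2.

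Of the 18 NRF2 pathway genes, 1 rose and 8 fell in Cd163-/- macrophages, against 13.1% higher and 13.3% lower over all tested genes. Their median was -0.20, against 0.01 over all tested genes. Scaled by library size alone, 4 were called higher and 5 lower, against 2665 and 1220 of the 13861 tested genes. Slc7a11, Gclm and Abcc1 are also on the pathway list and were called lower there, so the counts of these lists are not separate. Nfe2l2, which encodes NRF2, averaged 295 ± 38.5 CPM in Cd163-/- macrophages and 564 ± 81.7 CPM in wild-type macrophages (SD, n = 2 each). It fell by 0.94 (log2, SE 0.18, adjusted p = 0.0152 by edgeR). Nfe2l2 was named after its value was seen, and it was not called when either Cd163-/- library was left out. Txnrd1, thioredoxin reductase, fell by 1.73 (SE 0.24, adjusted p = 0.00627) and the exporter Abcc1 by 1.17 (SE 0.14, adjusted p = 0.00385). Ephx1, the epoxide hydrolase of the endoplasmic reticulum, rose by 1.34 (SE 0.21, adjusted p = 0.00893). None of the 10 transferases was called in the same libraries. Without Cd163-/- macrophage 1 Txnrd1, Abcc1 and Ephx1 were not called (adjusted p of 0.0771, 0.0563 and 0.0633), and 1 gene of the list was called lower, and without Cd163-/- macrophage 2 Txnrd1 was not called (0.058) and 2 were.

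The genes most like Gsta3 over the 6 hearts were found by the root mean square difference of their centred log2 CPM, among 11917 candidates. They were Ces1d, a carboxylesterase (0.289), Clec3b, which encodes tetranectin (0.292), Hsd11b1, which regenerates active glucocorticoid (0.346), Cyp26b1, which breaks down retinoic acid (0.374), and Poln, a DNA polymerase (0.376). Ces1d had 53.4, 60.6 and 42.0 CPM in IL-10 hearts, against 15.4, 17.1 and 18 CPM in saline hearts. Hsd11b1 had 38.0, 35.3 and 40.1 CPM in IL-10 hearts, against 13.0, 12.3 and 16.7 CPM in saline hearts. Clec3b averaged 42.0 CPM in IL-10 hearts and 15.1 CPM in saline hearts. The members themselves were left out of the candidates, so the ranking does not show how they compare. None of the 5 is another glutathione transferase, and the 6 hearts behind the measure fall into 2 groups.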

How the data were processed

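Gene counts were deposited as 2 tables, 1 of 6 heart and 1 of 4 macrophage libraries. Per the submitters' processing notes the authors used HISAT2 2.2.1 and featureCounts, whose version is not given. How reads that match several genes or strands were treated is not given in the sources used here. Per the labels' protocols libraries were made with the NEBNext Ultra RNA kit, which keeps no strand information, and the text speaks of liver RNA, while the sample labels name hearts and macrophages. The labels name both GRCm39 and mm10, so the build behind the counts is not settled.

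Of 55357 identifiers 52081 were named from GENCODE M21. Each table was fitted alone in R 4.3.3 with edgeR 4.0.16: filterByExpr (minimum count 10, minimum total 15), TMM scaling and the quasi-likelihood test, with Benjamini-Hochberg adjustment over all tested genes. SE is the absolute log2 difference over the square root of F. The procedure was also run on counts simulated from the spread fitted to these same libraries. Its outcome is not given here, and no call rests on it. Alternatives, with DESeq2 1.42.0 and limma 3.58.1 among them, are given at the end. Same-numbered libraries are not stated to be paired. A floor of 3 counts is 0.149 to 0.22 CPM, and counting intervals cover counting error only.

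The members and gene lists were chosen with earlier results of these data known. All 10 members are named in both comparisons, near copies by counts, up to 4 genes per list with the smallest p, and the 5 genes most like Gsta3.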

Additional observations from a re-analysis of the deposited data

How the results depend on the processing

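The count of the 9 heart members called higher stayed at 5 with the DESeq2 Wald test, limma-voom, scaling by upper quartile, DESeq2 size factors or library size alone, no filter, a 1 CPM filter, no mitochondrial genes and summed close copies, and at 5 to 6 when 1 heart was left out. With the replicate number as a block it was 5 as well, and 0 were lower throughout. Deviations of same-numbered hearts did not go together (r of -0.179, 0.0421 and 0.0034). The block lost the Me1 call (adjusted p = 0.0554). The Gsta4 difference was -0.013 under upper-quartile scaling, -0.026 under library size alone and -0.043 to 0.17 without 1 heart. The number of all genes called in hearts varied between 450 and 1082 higher without 1 heart and was 549 higher and 993 lower under library size alone, against 941 and 919.

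In macrophages members higher numbered 1 under upper-quartile scaling, 1 under library size alone, 3 with no filter, 2 with the DESeq2 Wald test and 0 to 2 without 1 library. Members lower numbered 1 with no filter, 1 with the replicate number as a block (Gsta3, adjusted p = 0.033), under which Ltc4s was not called (0.0502), and 0 to 1 without 1 library. Deviations of same-numbered libraries correlated at -0.113. With 2 libraries a group, crossed numbers then give 0.113 by construction, so this value cannot settle any pairing. With crossed numbers as a block, chosen after seeing the data, 2 members were higher and 0 lower. A lone library took its spread from the other group. Without 1 library Gstp1 ranged from -0.34 to 0.46 and Gstt1 from -0.61 to 0.042. Library-size scaling moved the median of all genes to 0.188 and the split to 2665 higher and 1220 lower, against 1817 and 1846. Upper-quartile scaling moved the median to 0.125, with 2310 higher and 1403 lower. NRF2 pathway genes lower numbered 5 under both, against 8. NRF2 pathway genes higher numbered 4 under library size alone and 2 under upper-quartile scaling, against 1. Without Cd163-/- macrophage 1, 360 genes were higher and 374 lower. The cause of these shifts was not tested. Without the mitochondrial genes in the total, Gsta3 stood at 35.3 per M in IL-10 hearts and 9.004 per M in saline hearts. With 13 to 23 counts in a macrophage library, depth limits what can be said of Gstt1.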
